A study of Mus musculus with 9 samples.

Results

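Short interspersed elements (SINEs) were followed as 31 repeat subfamilies in the RNA of cultured mouse muscle stem cells with and without Uhrf1. Members were taken by name from the deposited table of 1146 repeat subfamilies: every row whose name begins with B1, PB1, B2, B3, B4, RSINE or MIR, or with ID followed by a digit or by _. This gave 15 B1 and PB1 subfamilies, 3 of B2, 2 of B3, 2 of B4, 4 of ID, 4 of MIR and 1 of RSINE, against 1115 other subfamilies. The rule used names only, although it was chosen with earlier results of these data known. Over 3 Mutant and 3 Control libraries, none of the 31 passed the test across all repeats, and neither did any other of the 984 repeats tested (0%). The fitted differences of the members ran from −0.071 to 0.13 on the log2 scale. When the library labelled Control 3, which stands apart from the other Control libraries, was left out, 73 of 994 repeats (7.34%) passed, among them 1 member, the young subfamily B2_Mm1a, with a log2 fold change of 0.23.

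The Mutant group came from mice deficient for Uhrf1 in their satellite cells (muscle stem cells), which received tamoxifen for 5 days (150 µl of a 20 mg/ml solution) to induce recombination by Cre. The Control group received oil, so an effect of tamoxifen cannot be told apart from the loss of Uhrf1. Cells of both groups came from hindlimb muscle, from mice 9 weeks old, and were grown for 3 days after seeding 5000 cells/cm2. The driver of Cre and the exact alleles are not given in the sources used here. A further 3 libraries, of a Cre Control group also given tamoxifen, were not analysed here. Since no label says that each library is a separate animal, the p-values below speak only for the spread among these libraries, which may be technical.

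SINEs are short retrotransposons with no protein of their own. They are transcribed by RNA polymerase III from a promoter inside the element and are copied into new places by the proteins of LINE elements, LINE-1 for the younger families and LINE-2 for MIR. ID descends from the neuronal RNA BC1. A head related to tRNA is carried by B2, B3 and MIR, among others. Uhrf1 brings the maintenance DNA methyltransferase to newly copied DNA, and DNA methylation is one of the layers that silence retrotransposons. Many SINE copies also lie inside introns and untranslated ends of genes, so that their sequence is read as part of transcripts of RNA polymerase II. Counts per subfamily add up all copies and cannot tell these sources apart.

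The RNA gene below is shown because it is the cellular relative from which ID descends. The sequence is the GENCODE M21 transcript (GRCm38) in the sense strand, 5′ to 3′, and no sequence of the repeat subfamilies themselves is printed. Capitals mark matches to simplified letters of the internal RNA polymerase III promoter, GCNNAGNGG for the A box and GTTCNNNNC for the B box, searched on both strands.
Bc1: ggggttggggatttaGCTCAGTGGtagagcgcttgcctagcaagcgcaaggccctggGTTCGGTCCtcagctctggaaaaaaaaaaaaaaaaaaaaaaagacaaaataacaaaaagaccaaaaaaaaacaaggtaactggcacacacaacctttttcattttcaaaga

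Bc1 is a 168-base non-coding gene at chr7:144914470-144914637 on the plus strand, and the letters of the A box stood at bases 16 to 24 and those of the B box at bases 58 to 66, counted from 1 at the 5′ end. These 2 were the only matches on either strand, and they did not overlap. Among 17115 annotated transcripts of 100 to 400 bases, the B box letters occurred in the sense strand of 20.2% (37.4% on either strand) and the A box letters in that of 10.2% (18.6% on either strand). The letters are thus a description of this sequence and no evidence of transcription by RNA polymerase III. None of the 11 symbols listed here for RNA polymerase III transcripts, Bc1 among them, was in the authors' deposited gene table.

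Each library held 1794698 to 2245124 repeat counts, and each member 3090 to 114051 counts per library. All 31 members passed the filter on low counts, which left 984 repeats to be tested. Levels are given as CPM, counts relative to the total of repeat counts after scaling by edgeR's TMM factors. They are therefore shares of repeat RNA, not of all RNA, and are not set against element length or copy number. Among Mutant libraries the coefficient of variation of a member ran from 0.245 to 6.81% (median 1.29%), and among Control libraries from 0.570 to 11.6% (median 1.71%). Counting error alone would give at most 1.80%, at the lowest count.

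The members took a smaller part of the repeat counts in the Mutant libraries than in Control 1 and Control 2, a comparison that was not planned. Their share was 44.3, 41.3 and 39.0% in Mutant 1, 2 and 3, against 52.0, 51.6 and 42.3% in Control 1, 2 and the library labelled Control 3. The 95% Wilson interval of the Mutant 1 share was 44.2 to 44.4%, and intervals of this kind cover counting error only. Control 1 and Control 2 were higher than every Mutant library, while the library labelled Control 3 lay between Mutant 1 and Mutant 2. The means were 41.5 ± 2.67% in Mutant and 48.7 ± 5.47% in Control (SD, n = 3 each; exact permutation test, two-sided, p = 0.2, where 0.1 is the smallest p that 3 against 3 can give). Without the library labelled Control 3 the Control mean was 51.8% (exact permutation test, two-sided, p = 0.1, again the smallest possible).

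The share moved with another group of repeats. Names that begin with IAP, a family of endogenous retroviruses, took 10.6, 12.7 and 18.4% of repeat counts in the Mutant libraries, against 0.800, 0.991 and 15.0% in Control 1, Control 2 and the library labelled Control 3. The internal part of the main family, IAPEz-int, stood at 93193, 119442 and 185414 CPM in the Mutant libraries and at 4374, 5879 and 140924 CPM in the Control libraries. By this measure the library labelled Control 3 lies among the Mutant libraries, and the fold changes, sums and ratios named below are given with and without it. Of the counts outside IAP, the SINE members made up 49.6, 47.3 and 47.8% in the Mutant libraries and 52.5, 52.1 and 49.8% in the Control libraries, so that the groups did not overlap. These means were 48.2 ± 1.18% in Mutant and 51.5 ± 1.45% in Control (SD, n = 3 each; exact permutation test, two-sided, p = 0.1). The Control mean was 52.3% without the library labelled Control 3, at the same p in the exact permutation test. Fewer SINE transcripts and more of other repeats in the same total cannot be told apart in such shares.

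**Figure D1:**
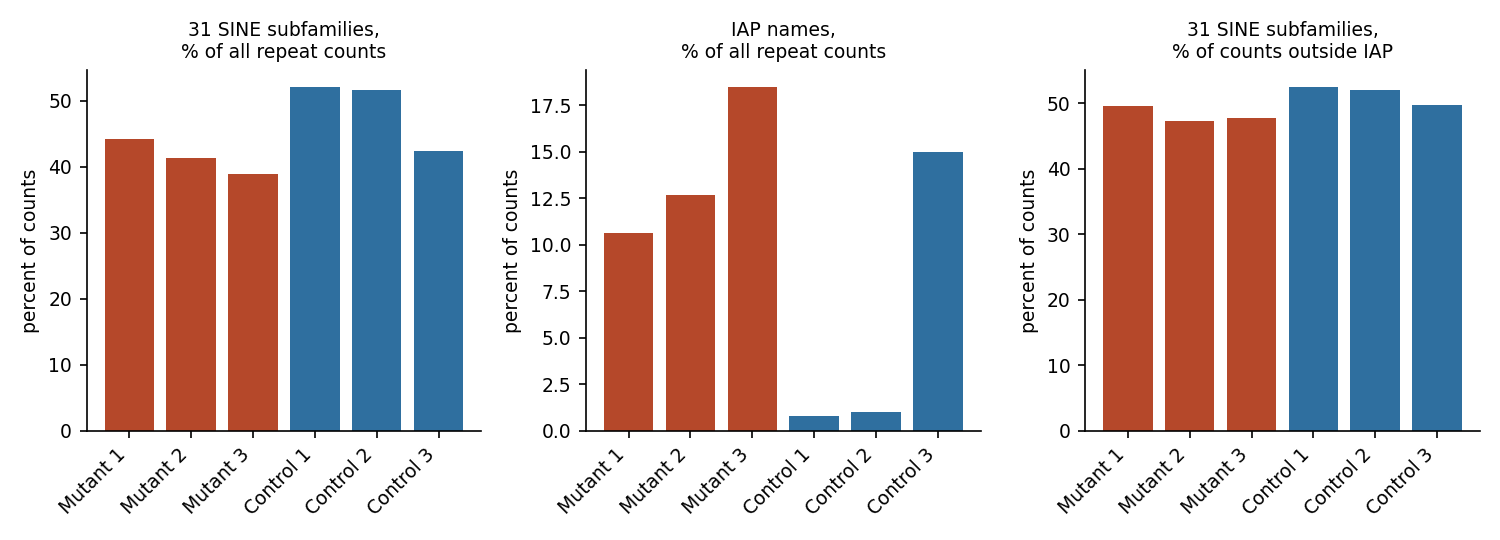
Share of repeat counts in percent (vertical axes) in each library (horizontal axes, 1 bar per library): all 31 SINE members, all names beginning with IAP, and the SINE members as a share of the counts outside IAP. The library labelled Control 3, at 42.3% SINE and 15.0% IAP, sits with the Mutant libraries in the first 2 panels.

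After scaling over all repeats, the members summed to 444224, 443854 and 443723 CPM in the Mutant libraries and to 454464, 449529.9 and 454406 CPM in the Control libraries. The Mutant sums lay close together and each was below each Control sum. The log2 difference of the sums was −0.029 (exact permutation test, two-sided, p = 0.1, the smallest possible). Without the library labelled Control 3 it was −0.026, also at p = 0.1 in the exact permutation test. Scaled by library totals alone, the log2 difference was −0.22 (exact permutation test, two-sided, p = 0.2), so its size rests on the scaling.

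The first question was which single subfamilies differed between Mutant and Control cells. Over 6 libraries edgeR's quasi-likelihood test with Benjamini-Hochberg adjustment called 0 of the 31 members at an adjusted p below 0.05, where 0% of all repeats tested were called. DESeq2 on the same counts also called 0 members, where it called 17 of the 1130 repeats given a p-value, 1.5%. At an unadjusted p below 0.05 in edgeR, 5 members were lower and 0 higher in Mutant, beside 4.67% of all repeats lower and 6.61% higher. The 5 were PB1D9, B1_Mus1, B1_Mus2, B3 and B4. Of the log2 fold changes 25 were below 0 and 6 above, with a median of −0.031, beside a median of −0.0027 over all repeats tested. These signs follow the scaling. Relative to the SINE counts alone 15 of the log2 fold changes were above 0 and 16 below, with a median of −0.0021. Relative to the library totals all 31 were below 0, with a median of −0.23 beside −0.20 over all repeats. The standard errors of the members ran from 0.020 to 0.084, with a median of 0.026 against 0.12 for the other repeats. All 95% intervals lay between −0.13 and 0.33 on the log2 scale.

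Ranges of single libraries were read under the main scaling, where the sum of all members was also lower in every Mutant library. The members thus share part of this separation and are not independent of each other. In 1 member, MIRb, every Mutant library was higher than every Control library, and in 11 members every Mutant library was lower, beside 8.54% and 9.25% of all repeats tested. The 11 were 8 of the 15 B1 and PB1 subfamilies (B1_Mus1, B1_Mus2, B1_Mur1, B1_Mur3, B1_Mur4, B1_Mm, PB1D9 and PB1D11), B2_Mm2, B4 and MIR. With Control 1 and Control 2 alone as Control, the counts were 5 higher and 15 lower, beside 21.3% and 18.2% of all repeats. The added ones were PB1D7, B2_Mm1t, B2_Mm1a and MIR3 on the higher side and B3, B3A, B4A and RSINE1 on the lower side.

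**Figure D2:**
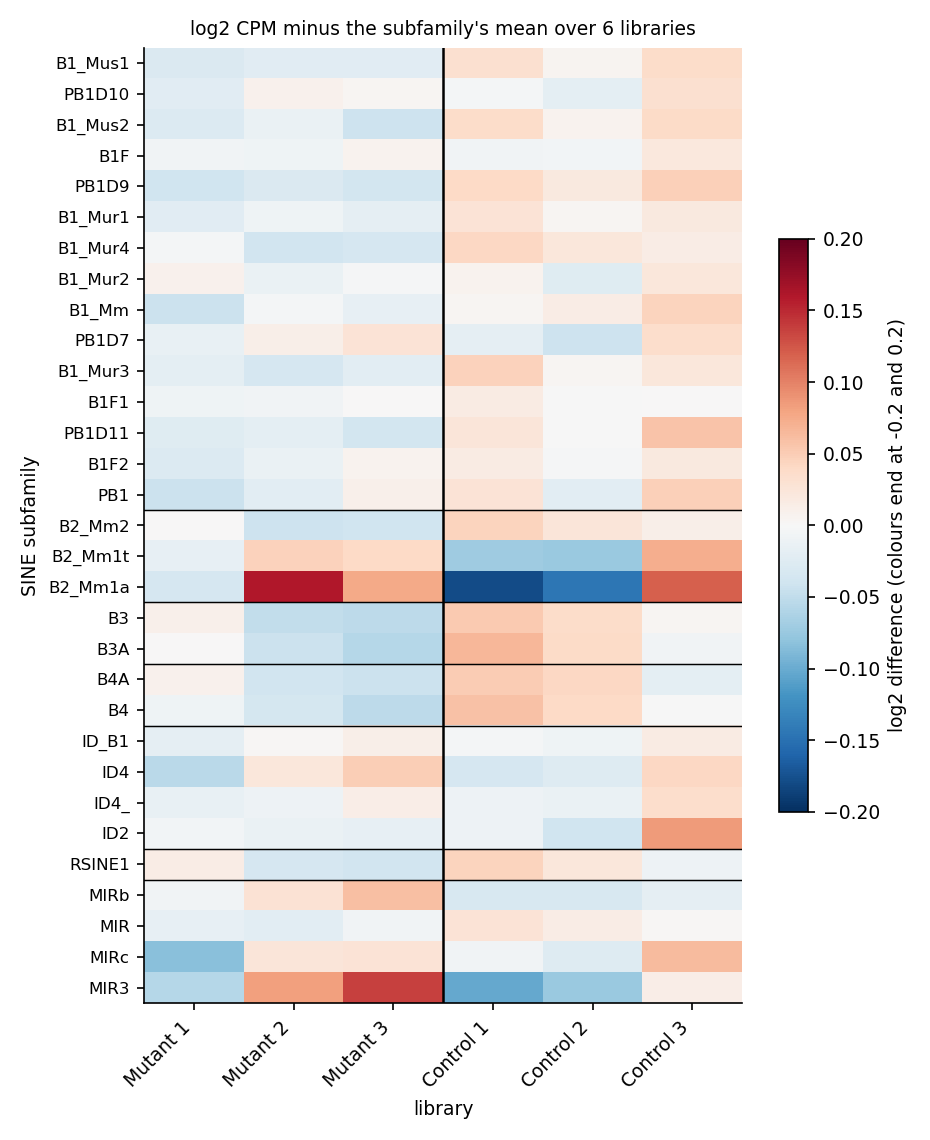
Deviation of each SINE subfamily (rows, grouped by family, with lines between families) from its own mean over the 6 libraries, in log2 CPM, for each library (columns, Mutant left of Control). B2_Mm1a and MIR3 vary most between libraries, and for both Control 1 and Control 2 lie below every Mutant library while the library labelled Control 3 lies among the Mutant ones.

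B1 and its forerunner PB1 form the largest family, and PB1 names mark the oldest, monomeric copies. Together they took 42.6, 42.8 and 42.8% of SINE counts in the Mutant libraries and 42.8, 42.7 and 43.2% in the Control libraries, so that within SINE RNA the groups overlapped. The family sum had a log2 difference of −0.033 (exact permutation test, two-sided, p = 0.1; 0.35 after Benjamini-Hochberg adjustment over 7 families). Of the 15 members 14 had a fold change below 0, from −0.071 to 0.016 over the family, under this scaling, and 0 were called. Without the library labelled Control 3, 11 of the 15 were below 0 and 0 were called.

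PB1D9, an old monomer, had the lowest fold change of all members. It stood at 13699.7, 13794 and 13718 CPM in the Mutant libraries and at 14469.7, 14269 and 14546 CPM in the Control libraries. Each Mutant library was below each Control library, and the gap was wider than the range within either group. The log2 fold change was −0.071 (SE 0.023; adjusted p = 0.334 in edgeR), and −0.065 without the library labelled Control 3 (adjusted p = 0.224 in edgeR). B1_Mus1, among the youngest B1 subfamilies, stood at 26224, 26333 and 26338 CPM in the Mutant libraries and at 27371, 26868 and 27454 CPM in the Control libraries. The groups again did not overlap, at a log2 fold change of −0.050 (SE 0.020; adjusted p = 0.419 in edgeR), or −0.044 (adjusted p = 0.356 in edgeR) without the library labelled Control 3. B1_Mus2, its close relative, had a log2 fold change of −0.055 (SE 0.022; adjusted p = 0.419 in edgeR), with Mutant libraries from 20248 to 20640.3 CPM and Control libraries from 20928 to 21385 CPM. Its value was −0.049 (adjusted p = 0.339 in edgeR) without that library. PB1D10 overlapped between the groups, at −0.0062 (SE 0.024), and turned to 0.0090 without the library labelled Control 3. PB1D7 was the only B1 or PB1 member above 0 over 6 libraries, at 0.016 (SE 0.030), and had 0.038 without that library.

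B2 held members with fold changes on both sides of 0, and its sum differed by 0.0026 (exact permutation test, two-sided, p = 1), or by −0.19 when scaled by library totals alone. B2_Mm1a and B2_Mm1t are its young subfamilies and B2_Mm2 the older one, and the family took 8.85, 9.02 and 8.92% of SINE counts in the Mutant libraries and 8.59, 8.64 and 8.98% in the Control libraries. B2_Mm1a stood at 7401, 8457 and 7984 CPM in the Mutant libraries, against 6693, 6854 and 8225 CPM in the Control libraries. Control 1 and Control 2 were below all 3 Mutant libraries, and the library labelled Control 3 was within the Mutant range. Over 6 libraries the log2 fold change was 0.13 (SE 0.084; 95% interval −0.065 to 0.33; adjusted p = 0.581 in edgeR).

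With the library labelled Control 3 left out, B2_Mm1a was the single member called by edgeR, where 73 of 994 repeats, 7.34%, were called (6.94% higher and 0.402% lower). Its log2 fold change was then 0.23 (SE 0.050; 95% interval 0.12 to 0.34; adjusted p = 0.02 in edgeR). DESeq2 on these 5 libraries also called this 1 member (0.23, SE 0.068; adjusted p = 0.0193 in DESeq2). In all, it called 61 of the 1131 repeats given a p-value, 5.39%. Scaled by library totals alone, B2_Mm1a turned in sign to −0.066 (adjusted p = 0.568 in edgeR), while the median over all repeats was −0.29 under that scaling. Calls without the library labelled Control 3 hold only under its exclusion, and this library was singled out by the same repeat counts.

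B2_Mm1t stood at 7962, 8315 and 8280.3 CPM in the Mutant libraries, against 7668, 7651 and 8466 CPM in the Control libraries. The library labelled Control 3 was the highest of all 6. For B2_Mm1t the log2 fold change was 0.046 (SE 0.046; adjusted p = 0.683 in edgeR) over 6 libraries and 0.096 (SE 0.034; adjusted p = 0.14 in edgeR) without that library. B2_Mm2 went the other way by its values, with 23967, 23255 and 23294 CPM in the Mutant libraries and 24687, 24346 and 24137 CPM in the Control libraries. No Mutant library reached a Control library, at a log2 fold change of −0.053 (SE 0.023; adjusted p = 0.446 in edgeR), or −0.060 (adjusted p = 0.227 in edgeR) without the library labelled Control 3.

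A ratio within each library needs no scaling between libraries. The ratios of B2_Mm1a and B2_Mm1t to B2_Mm2, and that of MIR3 to MIR given below, were not planned. They set members with positive fold changes over members with negative ones in the same counts, so their direction is no separate support. Per 100 counts of B2_Mm2, B2_Mm1a had 30.9, 36.4 and 34.3 counts in the Mutant libraries, against 27.1, 28.2 and 34.1 in the Control libraries. The means were 33.8 ± 2.77 in Mutant and 29.8 ± 3.76 in Control (SD, n = 3 each; exact permutation test, two-sided, p = 0.2). Without the library labelled Control 3 the Control mean was 27.6, also at p = 0.2 in the exact permutation test. B2_Mm1t had 33.2, 35.8 and 35.5 counts per 100 of B2_Mm2 in the Mutant libraries, against 31.1, 31.4 and 35.1 in the Control libraries (exact permutation test, two-sided, p = 0.2 with and without the library labelled Control 3). For both young subfamilies Control 1 and Control 2 were the lowest libraries and Mutant 1 was next. The share of B1 and PB1 in the counts of B1, PB1 and B2 was 82.8, 82.6 and 82.8% in the Mutant libraries and 83.3, 83.2 and 82.8% in the Control libraries (exact permutation test, two-sided, p = 0.3, or 0.1 without the library labelled Control 3).

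**Figure D3:**
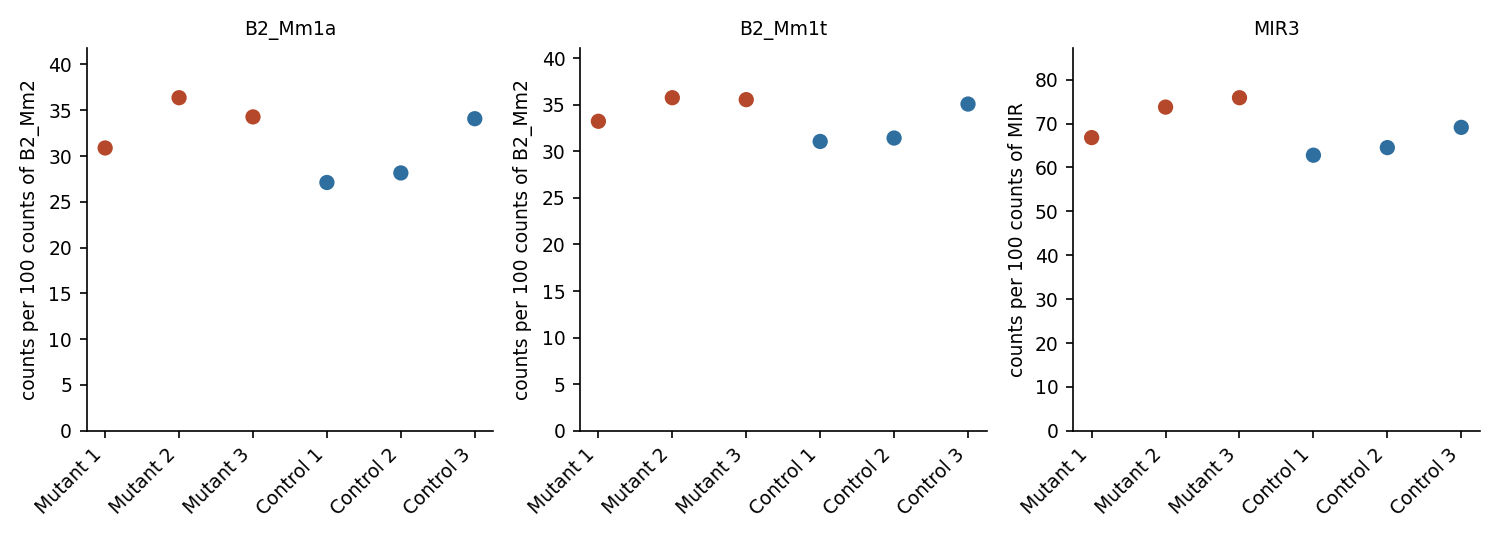
Counts per 100 counts of another subfamily of the same family in the same library (vertical axes, from 0) for B2_Mm1a and B2_Mm1t over B2_Mm2 and for MIR3 over MIR, with 1 point per library. In each panel Control 1 and Control 2 are the lowest points, Mutant 1 is the lowest Mutant library, and the library labelled Control 3 lies within the Mutant range.

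B3 is an older tRNA-related family close to B2, and B4 a fusion of tRNA-like and B1-like parts. Both, as grouped here by name, had log2 fold changes below 0 under every scaling tried. Grouped so, B4 holds B4 and B4A, and the composite ID_B1 (log2 fold change −0.0027 under the main scaling) is counted under ID. B3 stood at 43475, 41735 and 41609 CPM in the Mutant libraries and at 44738, 44253 and 43258 CPM in the Control libraries. Mutant 1 was above the library labelled Control 3, so the groups overlapped. The log2 fold change of B3 was −0.060 (SE 0.025; adjusted p = 0.419 in edgeR), and −0.074 (SE 0.026; adjusted p = 0.139 in edgeR) without that library. B3A had −0.065 (SE 0.028; adjusted p = 0.446 in edgeR), with Mutant libraries from 21085 to 21955 CPM and Control libraries from 21837 to 22974 CPM, and −0.084 (adjusted p = 0.119 in edgeR) without the library labelled Control 3. B4 stood at 14133, 13878 and 13719.8 CPM in the Mutant libraries and at 14814, 14619 and 14211 CPM in the Control libraries. Here the groups did not overlap, at a log2 fold change of −0.065 (SE 0.027; adjusted p = 0.419 in edgeR), or −0.081 (adjusted p = 0.143 in edgeR) without the library labelled Control 3. B4A had −0.049 (SE 0.028; adjusted p = 0.532 in edgeR), and −0.070 (adjusted p = 0.171 in edgeR) without it. The family sums differed by −0.062 for B3 and −0.055 for B4 (exact permutation tests, two-sided, p = 0.2 each; 0.35 after adjustment over 7 families).

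RSINE1, which RepeatMasker files with B4, put the 6 libraries in the same order as B3. It stood at 29613, 28608 and 28524 CPM in the Mutant libraries and at 30211, 29763 and 29096 CPM in the Control libraries. Mutant 1 again exceeded the library labelled Control 3. The log2 fold change was −0.038 (SE 0.025; adjusted p = 0.593 in edgeR), and its family sum, which holds this member alone, differed by −0.052 without that library.

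The ID family, as grouped here by name, had the smallest difference among the 7 family sums over 6 libraries under the main scaling. The composite ID_B1, placed here by its name, is by far its most abundant member and so weighs most in this sum. The order did not hold under every setting: with library totals alone the differences were −0.20 for ID, −0.19 for B2 and −0.17 for MIR, and without Mutant 3 they were −0.010 for ID, 0.0045 for B2 and 0.0073 for MIR. ID_B1 stood at 36065, 36575 and 36841 CPM in the Mutant libraries and at 36439, 36304 and 36942 CPM in the Control libraries. The libraries of both groups were mixed in order, at a log2 fold change of −0.0027 (SE 0.020; 95% interval −0.049 to 0.043; adjusted p = 0.969 in edgeR). ID4 had 0.013 (SE 0.037), ID4_ −0.0080 (SE 0.028) and ID2 −0.025 (SE 0.044). All 4 overlapped between the groups, with and without the library labelled Control 3. The family sum differed by −0.0018 (exact permutation test, two-sided, p = 1), a value whose sign turned to 0.0021 when IAP names were left out of the scaling.

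MIR elements are ancient SINEs shared by mammals. MIR3, the member with the next highest fold change after B2_Mm1a, stood at 5352, 5889 and 6121 CPM in the Mutant libraries, against 5186, 5287 and 5616 CPM in the Control libraries. Mutant 1 was below the library labelled Control 3 and above the other Control libraries. The log2 fold change was 0.11 (SE 0.056; adjusted p = 0.471 in edgeR), and 0.14 (SE 0.052; adjusted p = 0.149 in edgeR) without that library. It was 0.068 without Mutant 3 (adjusted p = 0.809 in edgeR) and 0.17 without Mutant 1 (adjusted p = 0.248 in edgeR). Per 100 counts of MIR, MIR3 had 66.8, 73.7 and 75.9 counts in the Mutant libraries, against 62.8, 64.5 and 69.1 in the Control libraries (exact permutation test, two-sided, p = 0.2 with and without the library labelled Control 3).

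MIRb was the member with no overlap on the higher side, with 9888, 10143 and 10359.7 CPM in the Mutant libraries, against 9719, 9724 and 9818 CPM in the Control libraries. Its log2 fold change was 0.055 (SE 0.028; adjusted p = 0.471 in edgeR), and 0.060 (adjusted p = 0.348 in edgeR) without the library labelled Control 3. MIR itself lay lower in every Mutant library, with 8012, 7986 and 8066 CPM in Mutant and 8260.3, 8195 and 8124 CPM in Control, and a log2 fold change of −0.031 (SE 0.025; adjusted p = 0.638 in edgeR), or −0.036 (adjusted p = 0.568 in edgeR) without that library. MIRc had −0.020 (SE 0.042), which turned to 0.0071 without it. The MIR members thus differed in sign among themselves, and the family sum differed by 0.025 (exact permutation test, two-sided, p = 0.4), or by −0.17 when scaled by library totals alone. Leaving out 1 library moved the MIR sum from 0.0073 (without Mutant 3) to 0.056 (without Mutant 1).

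**Figure D4:**
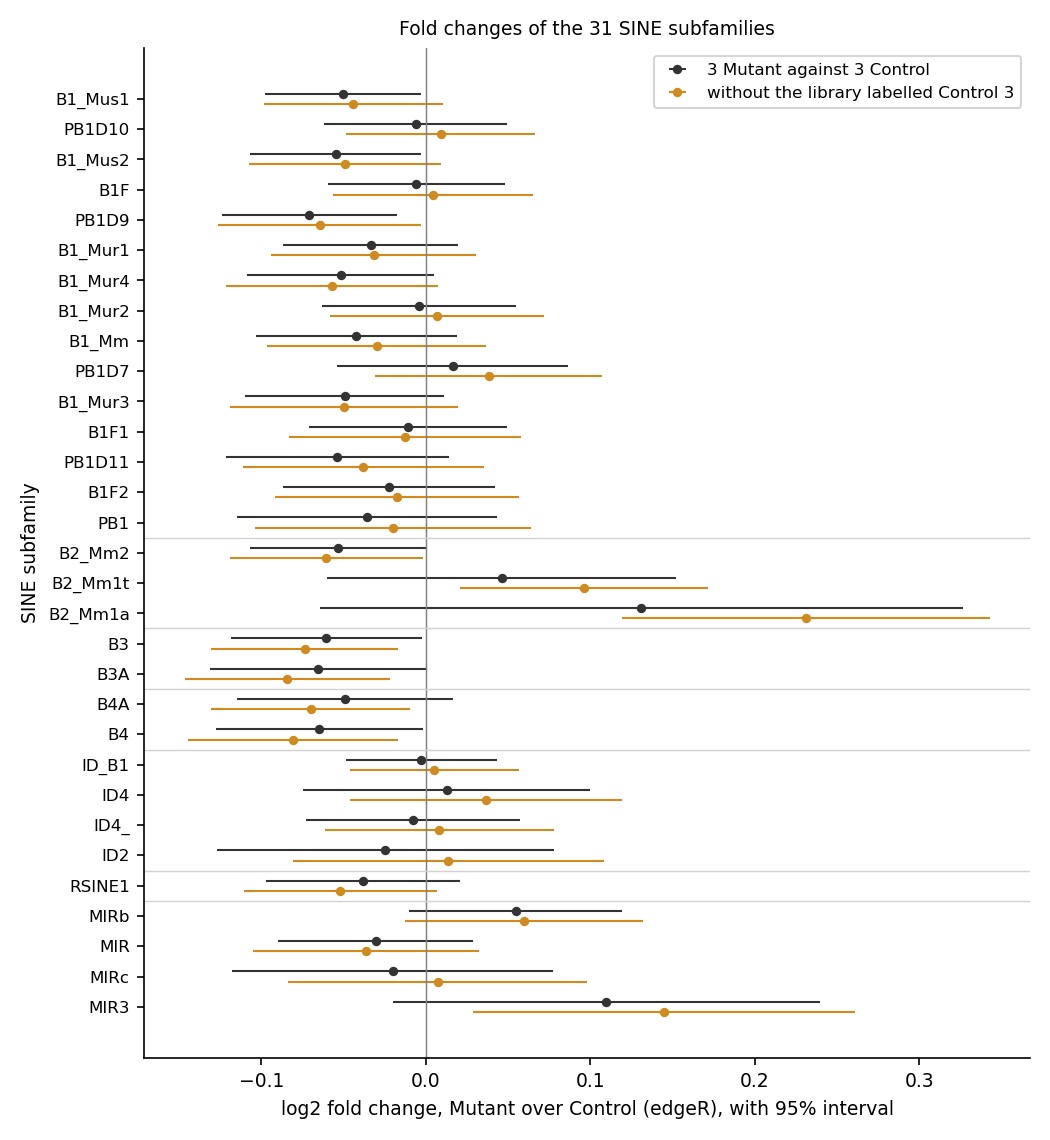
Log2 fold change of each of the 31 SINE subfamilies, Mutant over Control, with its 95% interval (horizontal axis, edgeR), over 6 libraries and without the library labelled Control 3. B2_Mm1a has the highest value in both comparisons, 0.13 and 0.23, and the members of B3 and B4 lie below 0 in both under this scaling.

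With Control 3 left out, 13 of the log2 fold changes were above 0 and 18 below, with a median of −0.020, beside 0.0044 over all repeats tested. At an unadjusted p below 0.05 in edgeR, 3 members were higher (B2_Mm1a, B2_Mm1t and MIR3) and 6 lower (B3, B3A, B4, B4A, B2_Mm2 and PB1D9), beside 13.5% and 7.44% of all repeats. All 4 ID members were then above 0, from 0.0052 to 0.037, and none was called. The family sums then differed by −0.025 for B1 and PB1, 0.026 for B2, −0.077 for B3, −0.074 for B4, 0.011 for ID, −0.052 for RSINE and 0.037 for MIR. After adjustment over 7 families the exact permutation p ran from 0.28 to 0.6.

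The members also showed how alike the libraries were. The chi-square per degree of freedom over the 31 members, which is near 1 for libraries that differ by sampling noise alone, was 2.25 for Mutant 2 and Mutant 3 and 1.54 for Control 1 and Control 2. For the library labelled Control 3 it was 4.67 with Mutant 2, 8.19 with Mutant 3 and 11.9 with Mutant 1, against 26.0 with Control 1 and 22.8 with Control 2. Mutant 1 was at 15.3 with Mutant 2 and 17.5 with Mutant 3, but at 9.22 with Control 1 and 6.31 with Control 2. By the mixture of SINE subfamilies, then, the library labelled Control 3 was closer to each Mutant library than to the other Control libraries, and Mutant 1 was closer to Control 1 and Control 2 than to the other Mutant libraries. Over all repeats the same measure put Mutant 1 with the other Mutant libraries, at 16.7 with Mutant 2 and 66.1 with Mutant 3, against 217 with Control 1 and 243 with Control 2. Over all repeats Control 1 and Control 2 were again the closest pair, at 3.38. Each pair exceeded 1 by both measures, and all 6 libraries were counted separately, although repeat preparations of 1 sample could also exceed 1.

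Other repeats of like abundance give a scale for these values. There were 59 with a mean CPM at least that of the lowest member. Over 6 libraries the interquartile range of the member fold changes ran from −0.051 to −0.0050, against −0.042 to 0.096 in these 59, whose full range was −0.11 to 1.43. Without the library labelled Control 3 edgeR called 12 of the 59 and 1 of the 31, and the 59 reached up to 4.69, the value of IAPEz-int, while the members reached 0.23.

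**Figure D5:**
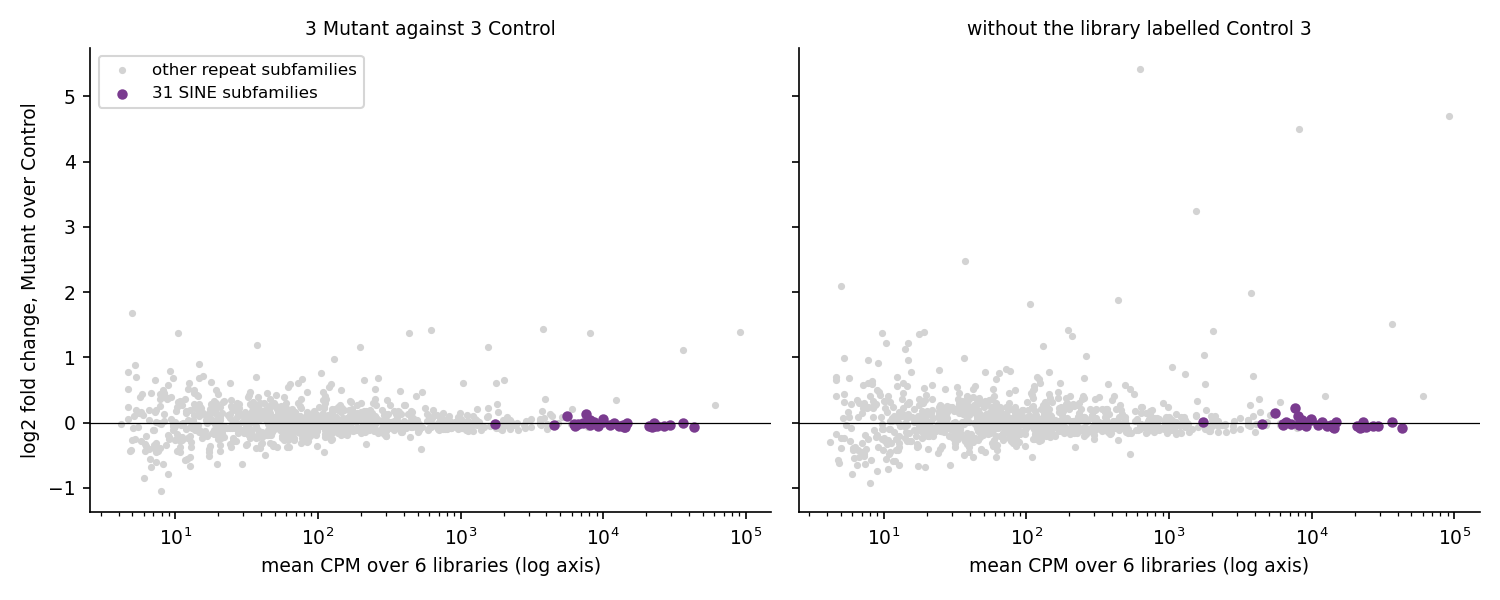
Log2 fold change, Mutant over Control (vertical axis, edgeR), against mean CPM over 6 libraries (horizontal axis, log scale) for all repeats tested, with the 31 SINE members in colour, over 6 libraries and without the library labelled Control 3. The members lie between −0.071 and 0.13 on the left and reach 0.23 on the right, among abundant repeats that reach 1.43 and 4.69.

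The authors' deposited repeat table rests on the 5 libraries without Control 3. Its mean levels equalled DESeq2-normalised means over those 5 libraries to within a relative difference of 4.70e-10 over 1093 subfamilies, while with all 6 libraries the largest difference was 0.496. Of the 1008 repeats given an adjusted p in the authors' deposited table, 63 had an adjusted p below 0.05, 6.25% (5.95% higher and 0.298% lower). Among these, B2_Mm1a was the 1 member, with a log2 fold change of 0.23 (SE 0.068; adjusted p = 0.0186 in DESeq2). MIR3 had 0.14 (SE 0.071; adjusted p = 0.364 in DESeq2) in the authors' deposited table. There, 12 members had a fold change above 0 and 19 below. The 6.25% is a share of repeats given an adjusted p, while the 5.39% above is one of repeats given any p-value.

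The genes that transcribe and handle SINE RNA were read from the authors' deposited gene table, which gives mean TPM (a level corrected for gene length and depth) per group and no value per library. Uhrf1 averaged 20.4 TPM in Mutant and 118 TPM in Control in the authors' deposited table. That table holds 22631 genes, 17.1% of them with an adjusted p below 0.05 (9.02% higher and 8.11% lower), by the sign of the authors' test statistic. The means behave as averages of 3 values per group: 3 times the mean was whole at the 4th decimal for 96.5% of Mutant and 95.9% of Control values over 6603 genes (tolerance 0.01). A mean of 3 values in Control sets this table apart from the repeat table, whose means match 2 Control libraries. The gene values cannot be given without the library labelled Control 3, since the table holds no value per library. The fold changes given next are test estimates, the authors' statistic times its standard error.

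Of 18 subunits of RNA polymerase III, including those shared with the other polymerases, the authors' deposited table called 4 lower and 0 higher in Mutant. The median test estimate was −0.13, beside −0.034 over the genes averaging 10 TPM or more. Polr2f, a shared subunit, averaged 120 TPM in Mutant and 169 TPM in Control in the authors' deposited table, at a test estimate of −0.41 (SE 0.098). Polr3e averaged 26.3 TPM in Mutant and 33.4 TPM in Control (−0.34, SE 0.092), and Polr3g 23.0 TPM in Mutant and 27.3 TPM in Control (−0.34, SE 0.11), in the authors' deposited table. Polr3a, the largest subunit, averaged 26.5 TPM in Mutant and 29.5 TPM in Control there (−0.24, SE 0.082, in the authors' deposited table). Each of these 4 differences was smaller than that of Uhrf1, whose test estimate was −3.12 in the authors' deposited table.

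Of 17 initiation factors, counted with the repressor Maf1, the authors' deposited table called 1 higher and 3 lower. Gtf3c1, the B box binding subunit of TFIIIC, averaged 87.4 TPM in Mutant and 71.2 TPM in Control, with a test estimate of 0.35 (SE 0.050) and an adjusted p of 1.16e-10 in the authors' deposited table. Gtf3c2 (−0.30, SE 0.073), Gtf3c4 (−0.18, SE 0.067) and Bdp1 of TFIIIB (−0.23, SE 0.076) were the 3 lower ones in the authors' deposited table.

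Of 9 symbols for proteins that bind or edit SINE RNA, 8 were in the authors' deposited table, 2 of them called higher and 3 lower in Mutant. The symbol not found was Ro60, and a search by symbol does not show that its protein is missing there. Srp14, which with Srp9 binds B1-like RNA, averaged 138 TPM in Mutant and 108 TPM in Control in the authors' deposited table, at a test estimate of 0.36 (SE 0.10). The editing enzyme Adarb1 averaged 24.4 TPM in Mutant and 20.7 TPM in Control in the authors' deposited table (0.41, SE 0.10). Dhx9, a helicase that binds inverted SINE repeats, averaged 187 TPM in Mutant and 230 TPM in Control in the authors' deposited table (−0.34, SE 0.054). Dicer1 (−0.32, SE 0.059) and Ssb, the La protein (−0.16, SE 0.057), were the other 2 called lower in the authors' deposited table. Calls thus went in both directions among the initiation factors and the proteins that handle SINE RNA, and only lower among the polymerase subunits. The 17.1% called among all genes was not restricted to genes of like level. No link between these lists and the SINE counts was tested.

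Marker genes of cell types were read from the authors' deposited table as well. The 6 satellite cell and myoblast markers (Pax7, Myf5, Myod1, Cdh15, Itga7 and Vcam1) summed to 1539 TPM in Mutant and 1733 TPM in Control, with 1 higher and 4 lower. Of 6 macrophage and leukocyte markers 5 were in the table and 2 of them, Cd68 and Laptm5, were higher, with sums of 111 TPM in Mutant and 32.3 TPM in Control and with Ptprc at 0.303 TPM in Mutant and 0.381 TPM in Control. The 4 fibroblast markers summed to 74.2 TPM in Mutant and 64.6 TPM in Control with 0 called, and the 4 endothelial ones to 6.51 TPM in Mutant and 7.86 TPM in Control, with 1 higher and 2 lower. Their part in the SINE values was not tested. In bulk RNA, fewer cells of a type and less RNA per cell cannot be told apart.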

How the data were processed

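The 3 Mutant and 3 Control libraries came from total RNA after removal of ribosomal RNA, with a kit that keeps the strand and paired reads, per the labels' protocols. Per the submitters' processing notes the tools were STAR 2.7.6a, featureCounts 2.0.1, Trim Galore 0.6.6 and DESeq2, with the builds GRCm38 and mm10. The repeat annotation and the treatment of reads that map to several places are not given in the sources used here. Near-identical subfamilies can share reads, so the split between them is uncertain.

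The authors deposited raw counts per repeat subfamily for 6 libraries. Their repeat table holds, per the file headers, a mean signal (normalised counts), log2 fold changes, a statistic (a score) and p-values. Their gene table holds mean TPM values, a log2 ratio, a score and p-values, per the file headers.

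The main test was the quasi-likelihood F test of edgeR 4.0.16 (R 4.3.3), with TMM factors, filterByExpr (minimum count 10), Benjamini-Hochberg adjustment over all repeats tested and a threshold of 0.05. The procedure was tested on simulated data. Single values per library were compared by exact permutation tests over libraries. Those of the SINE shares and of the ratios of B2_Mm1a, B2_Mm1t and MIR3 were not planned. Alternatives were DESeq2 1.42.0, other scalings, no filter, a replicate block and leaving out each library. A table comparing arms with no group in the labels, and the Cre Control libraries, were not used here. Named one by one were up to 3 members per family by mean CPM, the extremes of fold change and members past the threshold. Of the gene lists, those past the threshold were named, and other members and genes were named after their values were seen. The members and lists were chosen with earlier results of these data known.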

Additional observations from a re-analysis of the deposited data

How the results depend on the processing

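Over 6 libraries, 0 SINE members were called under every scaling, filter and tool tried. Repeats called numbered 0 in edgeR with all 6 libraries, 0 to 73 when 1 library was left out (73 without the library labelled Control 3, 0 without any other), 6 with library totals only, 2 with IAP names left out of the scaling and 17 with DESeq2. Members called higher ranged from 0 to 1 and members called lower stayed at 0 when 1 library was left out. Further settings without the library labelled Control 3, chosen after seeing the data, called 61 repeats with DESeq2, 61 with IAP names left out and 72 with SINE counts as the library size. Each of these 3 called 1 member higher, B2_Mm1a, at log2 fold changes of 0.23, 0.24 and 0.26 (adjusted p = 0.0193 in DESeq2, 0.00465 and 0.0151 in edgeR). Library totals only, without the library labelled Control 3, called 441 of 994 repeats, 401 lower and 40 higher. Under that scaling 28 members were called, all 28 lower, and the median over all repeats was −0.29.

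Scaling by library totals moved the median of all repeats to −0.20 on the log2 scale and that of the members to −0.23, or to −0.32 for the members without the library labelled Control 3. With SINE counts as the library size the median of the members was −0.0021, and 0.0056 without that library. Library totals turned the sign of the family sums of B2 (−0.19) and MIR (−0.17), and of B2_Mm1a (−0.059, and −0.066 without the library labelled Control 3), B2_Mm1t (−0.15), MIR3 (−0.091), MIRb (−0.15), PB1D7 (−0.18) and ID4 (−0.19). Leaving IAP names out of the scaling turned the ID sum to 0.0021 and ID_B1 to 0.0012. When 1 library was left out, values ran from −0.0087 to 0.026 for the B2 sum, −0.010 to 0.016 for the ID sum, −0.016 to 0.0098 for PB1D10, −0.0091 to 0.012 for ID_B1, −0.0086 to 0.048 for ID4, −0.016 to 0.0083 for ID4_, −0.048 to 0.014 for ID2 and −0.039 to 0.022 for MIRc. The median of the members ran from −0.036 to −0.020 and the value of B2_Mm1a from 0.076 to 0.23. The cause of these shifts was not tested. The counts of genes of RNA polymerase III were the same with a minimum of 1 TPM, which all of them reached.

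Whether same-numbered libraries belong together is not settled by the labels or by these counts. Deviations of same-numbered libraries over 984 repeats correlated at 0.29, 0.071 and 0.28. Control 2 correlated better with Mutant 1, at 0.16, than with Mutant 2. Over the SINE members alone the same-numbered values were 0.84, −0.72 and 0.50. With the replicate block edgeR called 0 repeats and 0 members, and the median of the members was −0.031. At an unadjusted p below 0.05 there were 154 repeats against 111 without the block. Among them were 9 members (1 higher, 8 lower) against 5, all lower. Of all repeats tested, 9.76% were higher and 5.89% lower with the block, against 6.61% and 4.67% without it. The median SE of the members was 0.022 with the block and 0.026 without it. Each SINE member had at least 3090 counts per library. The limits are 3 libraries per group, a Control library that stands apart, and shares that depend on the other repeats in the total.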
